A study of Mus musculus with 10 samples.

Results

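The transcriptome of the wild type mouse testis at postnatal day 21 (P21) was described from 3 RNA-seq libraries, which are 3 of the 10 libraries in the series and were chosen by their labels alone. Each library was made from a pair of whole testes of a wild type (Mov10+/+) mouse, and no treatment or cell sorting is named. As the study describes them, its mice had a mixed background of several strains, and whether the 3 pairs came from littermates is not given. RNA with a poly(A) tail was sequenced with a stranded kit, and the deposited files hold raw counts of reads on each gene. The libraries are called wild type replicates 1, 2 and 3, and since they form a single group their spread is described without a test. The libraries of Mov10-/- testes and of RNA bound by MOV10 were not compared with them.

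In the juvenile mouse testis the first wave of spermatogenesis runs through its stages one after another. Spermatogonia divide at the base of the seminiferous tubule, spermatocytes carry out meiosis, and the haploid spermatids build the acrosome as round cells and then elongate, when histones give way to transition proteins and protamines. Spermatids are known to appear near P21, the age sampled here. Inside the tubule the germ cells rest on Sertoli cells, and outside it lie peritubular smooth muscle, Leydig cells that make testosterone, blood vessels, fibroblasts and macrophages.

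Wild type replicates 1, 2 and 3 had 8386939, 7600909 and 9230540 reads on genes, or 45.4% to 47.2% of the reads counted in total. Reads per gene were scaled to a total of 1000000 reads on genes (RPM), so that 1 read was worth 0.108 to 0.132 RPM. A gene without reads could still have up to 3 counts, that is 0.325 to 0.395 RPM. These limits and the intervals below cover counting error only. RPM was above 1 in every library for 18779 genes, of which 15103 were protein-coding (68.7% of the 21976 protein-coding genes in the files). No pair of libraries matched within counting error, since chi-square divided by the degrees of freedom was 17.6 between replicates 1 and 2, 6.27 between replicates 1 and 3 and 20.7 between replicates 2 and 3. Across the 15697 genes with a mean of at least 5 RPM, Spearman's rho was 0.930, 0.978 and 0.921 for the same pairs, so that replicate 2 stood apart from replicates 1 and 3. Genes are not independent replicates, and these values are a description.

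The genes with most reads were long genes. Dnah8, a heavy chain of the dynein motor of the sperm flagellum, had the highest RPM of all genes with 877 ± 34.4 RPM (SD, n = 3). Among the next were Dync1h1, the heavy chain of cytoplasmic dynein (786 ± 37.2 RPM), the ubiquitin ligase gene Ubr4 (738 ± 64.8 RPM) and a further axonemal dynein, Dnah17 (694 ± 60.4 RPM). Dnah2 and Dnah1, which also encode axonemal dynein heavy chains, were among the first 20 as well, with 512 ± 36.2 and 485 ± 50.1 RPM. Others of these 20 were Wnk1, 4932438A13Rik, Ep400, Trip12, Macf1, Mdn1, Plec, Prrc2a, Son, Srrm2, Smg1 and Cnot1, between 486 and 589 RPM. The exons of the 20 genes spanned 7631 to 32279 bases, against a median of 3625 bases for all genes above 1 RPM in every library. Together they held only 1.16% to 1.20% of the reads, and the 1000 genes with most reads held 23.5% to 24.2%.

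Per exon base, the libraries had an upper limit that few genes passed. Of the 15127 genes with at least 150 reads over the 3 libraries, the median was 0.101 reads per exon base, the 99th percentile was 0.498, and 2 genes exceeded 1. These were C2cd6, a sperm gene with 1.20 reads per exon base, and Gm10840, a predicted gene with 1.11. Between 0.02 and 0.05 reads per exon base the median gene had 1.52 times as many raw reads in replicate 3 as in replicate 2, where the library totals differed 1.21-fold. The same ratio was 1.30 between 0.1 and 0.2 reads per exon base and 1.01 above 0.5. Between replicates 3 and 1, whose totals differed 1.10-fold, the ratio changed less, at 1.09, 1.10 and 1.05 in the same ranges. Genes with many reads for their length thus had nearly equal raw reads in replicates 2 and 3 despite their depths, which bears on every comparison of such genes below. How much of this belongs to replicate 2 itself was not tested. The methods name no step that removes duplicate reads, and the cause was not tested.

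**Figure D1:**
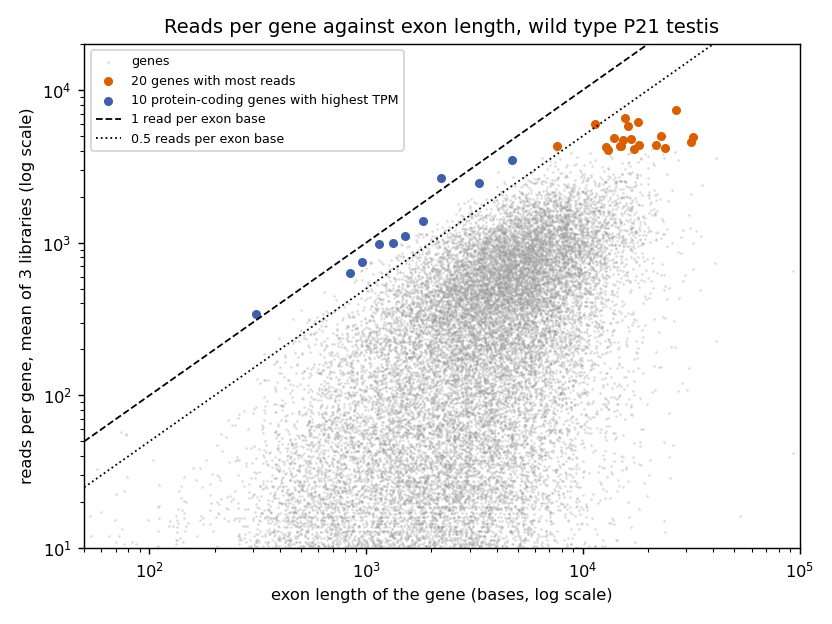
Reads per gene (mean of the 3 wild type libraries, log scale) against the exon length of the gene in bases (log scale). Grey points are genes with a mean of at least 10 reads, orange points the 20 genes with most reads, blue points the 10 protein-coding genes with the highest TPM, and the lines mark 1 read (dashed) and 0.5 reads (dotted) per exon base. Of 15127 genes with at least 150 reads in all, 149 lie above the dotted line and 2 above the dashed one.

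Levels were compared between genes as TPM, in which reads are divided by exon length and scaled to a common total of 1000000. Exon length here is that of all annotated exons of a gene merged, not of a single transcript. The highest protein-coding gene was C2cd6 with 572, 635 and 507 TPM in replicates 1, 2 and 3, and Gm10840 came next with 488, 578 and 509 TPM. The mitochondrial genes mt-Cytb, mt-Nd1 and mt-Nd5, which encode parts of the respiratory chain, had means of 403 ± 17.4, 369 ± 16.5 and 356 ± 21.1 TPM. Pgam2, a phosphoglycerate mutase of glycolysis, had 356 ± 21.5 TPM, and Tuba3a, an alpha tubulin of the testis, had 347 ± 26.1 TPM. Lrrc46 (352 ± 24.2 TPM), the translation elongation factor gene Eef2 (350 ± 13.7 TPM) and Atp8b3, a lipid flippase of the acrosome (349 ± 29.0 TPM), completed the first 10. From Pgam2 to Tuba3a the TPM values differed by less than their spread between libraries. Mitochondrial genes were 4 of the 30 protein-coding genes with the highest TPM, and the mitochondrial genome held 0.0798% to 0.0857% of the reads on genes.

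Gene lists for 7 germ-cell stages, 6 kinds of somatic testis cell, 7 other cell types or tissues and broadly expressed genes were then summed in each library. A sum of RPM depends on the length and number of the genes, and it was compared only between libraries. A gene was counted as over 2-fold apart when its mean was at least 5 RPM, its highest and lowest library differed over 2-fold in RPM + 0.5, and the exact 95% Poisson intervals of both counts did not overlap. This held for 2246 of all 15697 genes with a mean of at least 5 RPM, which is 14.3%, the background for each list below. A gene can reach this mean through 1 library alone. The condition on intervals removed no gene, since the count was also 2246 without it. The median of the 15697 genes was lower in replicate 2, with a log2 difference of -0.07 to replicate 1 and -0.10 to replicate 3. At any fold, the order replicate 2, 1, 3 held for 3098 of them. How many of all genes were otherwise highest or lowest in each library at any fold was not counted. Such counts in the lists below thus have no background and only describe the lists. In whole tissue, a low sum can come from fewer cells of a type or from less RNA per cell, and these cannot be told apart.

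Spermatogonia were represented in every library. The list for undifferentiated spermatogonia summed to 453, 317 and 463 RPM in replicates 1, 2 and 3. Its defining genes were Zbtb16, a transcription factor of spermatogonial progenitors with 548, 287 and 601 reads, Gfra1, the receptor for the growth factor GDNF with 209, 119 and 209 reads, and Id4, a marker of stem cells with 478, 440 and 620 reads. Replicate 2 was the lowest in Zbtb16 and Gfra1 RPM (37.8 and 15.7 RPM), whereas in Id4 it was not (57.9 RPM against 57.0 in replicate 1). Per length, Foxo1, Id4 and Etv5, the genes of this list with the highest RPM, had 32.2, 62.6 and 58.0 TPM. Of 16 genes 10 reached 5 RPM, and 1 of them, Ret, the signalling partner of GFRA1, was over 2-fold apart (36.5, 16.3 and 30.4 RPM). Nanos2 and Eomes, which mark the most primitive spermatogonia, had only 7 to 16 and 3 to 11 reads, and Nanos2 shares 49.0% of its exon bases with a gene on the opposite strand.

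Genes of differentiating spermatogonia summed to 589, 468 and 583 RPM, again lowest in replicate 2. Kit, the receptor that marks the step to differentiation, had 94.7, 68.8 and 93.5 RPM. Sohlh1 and Sohlh2, transcription factors of the same step, had 27.4, 19.6 and 29.6 RPM and 65.7, 41.0 and 50.7 RPM. Dmrtb1, which acts at the switch from mitosis to meiosis, had the highest level of the list per length with 222 TPM and was even across the libraries (111, 129 and 110 RPM), and Dmrt1, another gene of that switch, had 75.5, 55.1 and 76.1 RPM. Of the 10 genes, 9 were lowest in replicate 2 and only Rhox13 was over 2-fold apart, with 133, 64 and 182 reads.

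None of the genes tested in the 3 lists of meiotic cells was over 2-fold apart, against 14.3% of all genes with a mean of at least 5 RPM. Over all genes this share fell with reads per exon base, from 7.56% between 0.1 and 0.2 to 1.79% between 0.4 and 0.5 and 0% above 0.5. The median genes of the 3 lists had 0.189, 0.491 and 0.275 reads per exon base. The part of this in the absence of such genes was not tested. The list from meiotic entry to zygotene summed to 2343, 2204 and 2336 RPM with 27 of 28 genes at a mean of at least 5 RPM. Its first genes act at the start of meiosis: Stra8, the retinoic acid response gene, had 53.3, 39.1 and 52.7 RPM, Gm4969, also called Meiosin, had 88.5, 65.3 and 93.1 RPM, and Prdm9, which sets the sites of recombination, had 59.1, 35.1 and 53.7 RPM. Each was lowest in replicate 2. The genes with most reads encode chromosome axis and cohesin proteins: Sycp2 had 309 ± 6.64 RPM, Stag3 had 298 ± 18.8 RPM and Smc1b had 196 ± 10.5 RPM. Majin, which tethers telomeres to the nuclear envelope, had 1, 1 and 4 reads, although its partners Terb1 and Terb2 had 557 to 733 and 171 to 313 reads.

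Genes of pachytene spermatocytes had the highest levels per length of all lists, with a median of 232 TPM against 46.0 TPM over all genes with a mean of at least 5 RPM. Their sum was 2337, 2581 and 2314 RPM, highest in replicate 2, over 16 genes. Mybl1, the transcription factor that opens the pachytene program, had 140 ± 5.89 RPM. Piwil1, which binds pachytene piRNAs, had 289 ± 13.8 RPM, Hspa2, a chaperone of the synaptonemal complex, had 214 ± 12.4 RPM, Tdrd6, a protein of the chromatoid body, had 408 ± 40.4 RPM, and Clgn, a chaperone of sperm surface proteins, had 279 ± 20.4 RPM. The median gene of this list had 0.491 reads per exon base, where raw reads differed little between depths, and 12 of the 16 genes were at or above 0.3 reads per exon base. The list for late meiosis and the divisions summed to 856, 959 and 843 RPM over 12 genes. In it Ccna1, the cyclin of the meiotic divisions, had 81.1, 108 and 79.3 RPM, Boll, a translation regulator, had 123, 138 and 127 RPM, Aurkc, the meiotic Aurora kinase, had 151, 174 and 187 reads, and Tesmin had 146 ± 8.64 RPM.

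**Figure D2:**
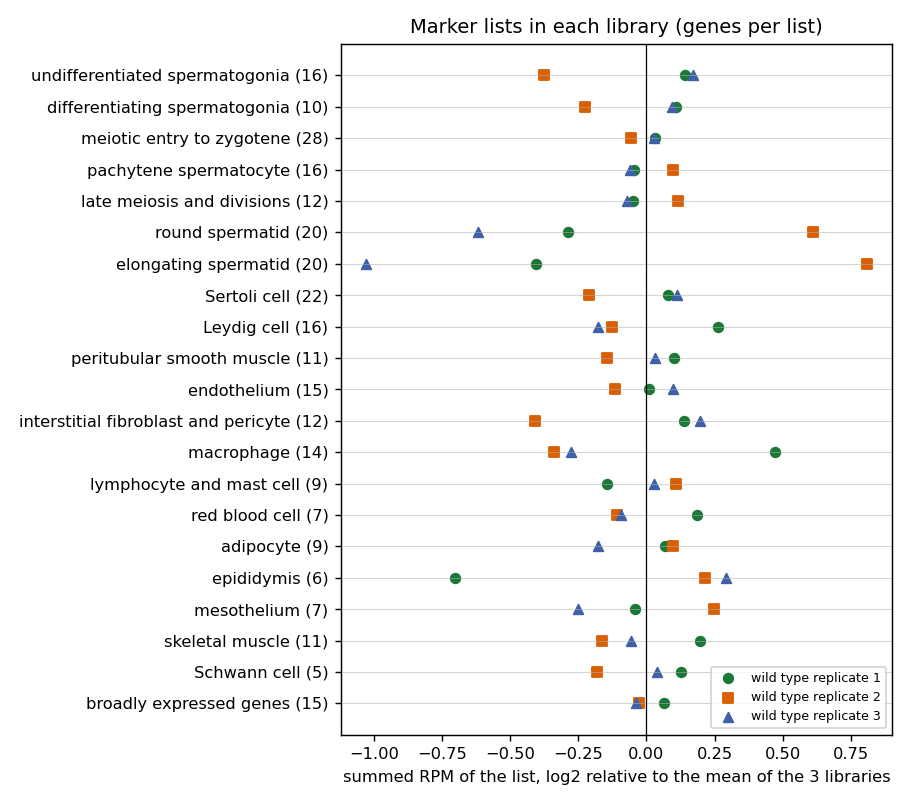
Summed RPM of each marker list in wild type replicates 1 (circles), 2 (squares) and 3 (triangles), as log2 relative to the mean of the 3 libraries, with the number of genes in brackets. The 2 spermatid lists spread most among the germ-cell lists, with replicate 2 on the right and replicate 3 on the left, and replicate 1 stands alone on the right for the Leydig cell and macrophage lists.

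Spermatid genes separated the 3 libraries most. The round spermatid list summed to 834, 1556 and 663 RPM in replicates 1, 2 and 3, and 16 of its 20 genes were over 2-fold apart, where 14.3% of all genes were. All 20 genes were highest in replicate 2 and 18 were lowest in replicate 3. Of the 16, all but Spaca4 were lowest in replicate 3, where 7.85% of all genes were over 2-fold apart and lowest, and Spaca4 was lowest in replicate 1 (2.81% of all genes), with 102, 296 and 118 reads. Acrv1, a protein of the acrosomal matrix, had 334, 650 and 248 reads (39.8, 85.5 and 26.9 RPM). Spaca1 and Spaca3, which encode membrane proteins of the acrosome, had 294, 472 and 228 reads and 185, 391 and 161 reads. The largest difference of the list was in Catsper3, a subunit of the sperm calcium channel, with 155, 422 and 92 reads, and replicate 2 was 5.57-fold higher in RPM than replicate 3 (95% interval 4.44 to 7.06). Sun5, which holds the sperm head to the tail, differed 4.43-fold (3.66 to 5.38).

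The other 4 genes of the list were Acr, Acrbp, Zpbp2 and Actl7b, with differences of 1.19-fold to 1.60-fold. Acr encodes the protease acrosin, Acrbp its binding protein and Zpbp2 a protein that binds the zona pellucida. Their reads were 780, 834 and 772 for Acr, 782, 913 and 855 for Acrbp, 778, 828 and 842 for Zpbp2 and 680, 987 and 794 for Actl7b, an actin-like protein of the sperm head. All but Acrbp had over 0.45 reads per exon base. In both spermatid lists together, the 4 genes above that value (Acr, Zpbp2, Actl7b and Odf4) differed 1.19-fold to 1.60-fold, while every other gene but Acrbp was over 2-fold apart. The value of 0.45 lies just above the highest value of a gene over 2-fold apart (0.437), so that this split depends on where it was set. All 6 genes between 0.3 and 0.45 were over 2-fold apart (2.42-fold to 3.76-fold). The part of reads per exon base in these differences was not tested. Actl7b shares 90.9% of its exon bases with another gene on the opposite strand and Acrbp 29.8% with one on the same strand. The strand setting of the counting is not stated. Ldhal6b, a gene named after its values were seen, has 100% of its exon bases opposite another gene and had 984, 989 and 987 reads.

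Genes of elongating spermatids differed more. Their sum was 614, 1424 and 398 RPM, and 19 of 20 genes were over 2-fold apart, where 14.3% of all genes were. Of the 19, Prm1, Spem1, Tssk6 and Fscn3 had a mean of at least 5 RPM only with replicate 2 included. All 20 were highest in replicate 2, and 19 were lowest in replicate 3. Tnp1 and Tnp2 encode the transition proteins that first replace histones. Tnp1 had 91, 255 and 30 reads, so that replicate 2 was 10.3-fold higher than replicate 3 (95% interval 7.06 to 15.6), and Tnp2 had 73, 347 and 24 reads, 17.6-fold (11.6 to 27.8). Prm1 and Prm2 encode the protamines that pack sperm DNA. Prm1 had 35, 188 and 8 reads, 28.5-fold (14.2 to 67.1), and Prm2 had 98, 430 and 15 reads, 34.8-fold (20.9 to 62.7). Protamine transcripts were thus present in every library, but replicate 3 had 0.867 RPM of Prm1 against 24.7 RPM in replicate 2.

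The limits of 5-fold and 10-fold used next were not planned, and the interval of Tnp1 given above reaches below 10-fold. By the point value of the plain RPM ratio alone, the genes of the elongating list differed either over 10-fold or under 5-fold, with none in between. The first held 10 genes: Tnp1, Tnp2, Prm1, Prm2, the linker histone gene H1fnt, the kinase gene Tssk6, the actin-bundling gene Fscn3, and Spem1, Cabs1 and Spata3. Fscn3 differed most with 17, 257 and 4 reads, 78.0-fold (30.1 to 289). Tssk6 was the exception in order, since replicate 1 was the lowest with 3 reads, against 114 and 12 in replicates 2 and 3. It shares 29.2% of its exon bases with a gene on the opposite strand. The second group held 9 genes with differences of 2.42-fold to 3.89-fold, and it included genes of the sperm tail and of sperm energy use: Akap4 and Akap3, anchors of the fibrous sheath, had 695, 1400 and 437 reads and 1038, 1629 and 781 reads, and Gapdhs, the sperm form of a glycolytic enzyme, had 482, 877 and 326 reads. Prm3, which lies on chromosome 16 at 10790505 to 10790914 (mm10) between Tnp2 (10787936 to 10788660) and Prm2 (10791380 to 10796134), differed 3.62-fold with 63, 143 and 48 reads, whereas both neighbours differed over 10-fold. Odf4, a gene of the outer dense fibres, had 710, 782 and 761 reads and was the remaining gene, with a 1.25-fold difference at 0.644 reads per exon base.

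Replicates 1 and 3 differed less. Replicate 1 had higher RPM than replicate 3 in 18 of 20 round and 19 of 20 elongating spermatid genes, with a median ratio of 1.48 and 1.71. By the 2-fold rule, however, none of the round and 6 of the elongating spermatid genes (Tnp1, Tnp2, Prm2, H1fnt, Cabs1 and Spata3) were over 2-fold apart between replicates 1 and 3 alone, where 3.65% of all genes were. Only 16 of the 20 elongating spermatid genes had a mean of at least 5 RPM in these libraries. Prm1, Fscn3, Spem1 and Tssk6 did not and were not counted, with replicate 1 over replicate 3 at 4.82, 4.68, 2.79 and 0.275.

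**Figure D3:**
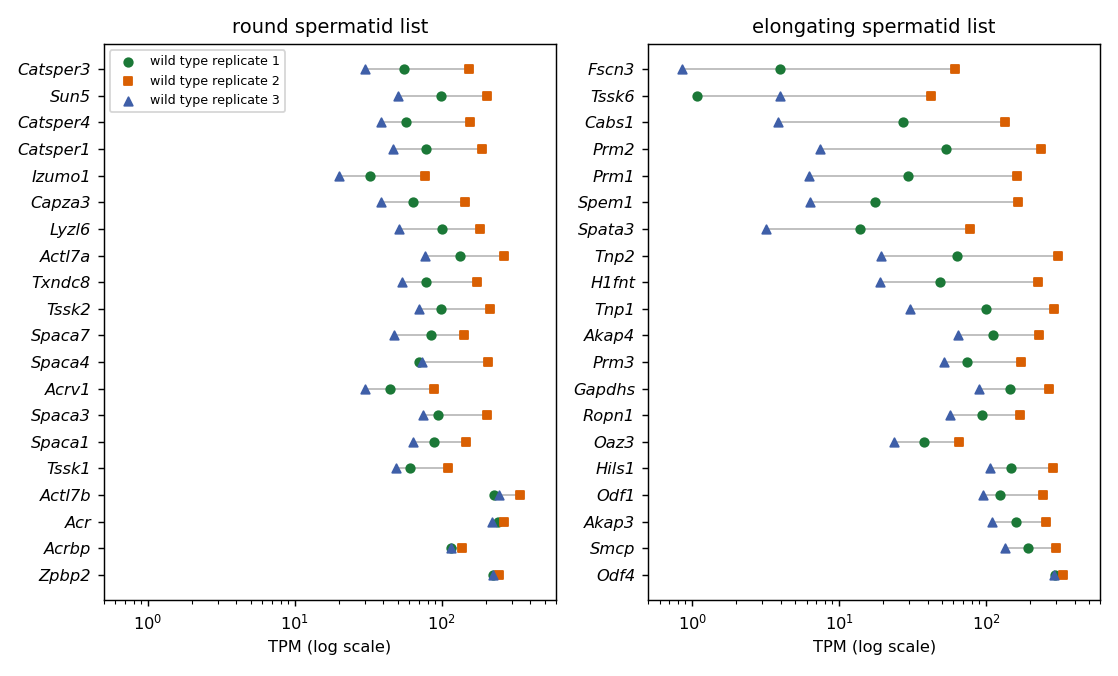
TPM (log scale) of the 20 genes of the round spermatid list (left) and the 20 genes of the elongating spermatid list (right) in wild type replicates 1 (circles), 2 (squares) and 3 (triangles), ordered by the difference between the highest and the lowest library. Replicate 2 is the highest in all 40 genes, and the 10 elongating spermatid genes at the top differ over 10-fold.

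The promoters of the spermatid lists were searched for TGACGTCA, the full site bound by CREM, a transcription factor of spermatids. The windows of RefSeq (GRCm38.p6) run from 250 bases before to 50 after the start of a gene, and the motif reads the same on both strands. It was present in 1.79% of all 32851 windows. Of the 17 round and 17 elongating spermatid genes with a window, only Izumo1 of the round spermatid list held it, the gene of the sperm protein that joins the egg membrane. The motif began 96 bases before the start, and it is shown in capitals with 8 bases on each side, from chr7:45621707-45621730 on the plus strand.
Izumo1: ccaccctaTGACGTCAcgatggga
Izumo1 had 200, 462 and 134 reads in replicates 1, 2 and 3, a 4.19-fold difference (3.45 to 5.11), with 21.9% of its exon bases shared with another gene on the same strand. Among the genes that were over 2-fold apart with replicate 2 highest and replicate 3 lowest, 17 of 779 with a window held the motif (2.18%), against 400 of 11658 genes with a mean of at least 5 RPM (3.43%). Of the other lists, only that of endothelium held it, in 1 of 9 genes. A shorter form of the site was not searched.

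Sertoli cells were represented by most of their genes, with a summed 1416, 1156 and 1446 RPM. Sox9 and Wt1, transcription factors that keep Sertoli cell identity, had 65.5, 48.7 and 78.4 RPM and 102, 75.8 and 109 RPM. Clu, a secreted glycoprotein, had the most reads of the list (172 ± 7.80 RPM), followed by Kitl, the ligand of KIT on spermatogonia (111, 79.6 and 129 RPM), and Mro (105, 82.8 and 116 RPM). Of 20 genes with a mean of at least 5 RPM, 14 were lowest in replicate 2. Over 2-fold apart were 5 (25%, against 14.3% of all genes). Amh, the hormone of immature Sertoli cells, was lowest in replicate 1 with 146, 185 and 337 reads, and Gdnf, which maintains stem cells, had 61, 42 and 136 reads. Fshr, the receptor for follicle-stimulating hormone, had 324, 143 and 282 reads. Cst9 had 214, 394 and 416 reads, and Trf, which encodes transferrin and shares 63.5% of its exon bases with a gene on the same strand, had 747, 302 and 377 reads. The X-linked homeobox genes Rhox5 and Rhox8 were listed with 0 reads in every library, which allows up to 0.325 to 0.395 RPM by counting error alone. The strand setting was not stated, and its part in these counts was not tested.

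Leydig cell genes summed to 1011, 772 and 744 RPM, and 8 of the 13 genes with a mean of at least 5 RPM were highest in replicate 1. Star, which carries cholesterol into mitochondria, had 87.2, 53.8 and 39.9 RPM, Cyp11a1, the first enzyme of steroid synthesis, had 117, 89.3 and 68.3 RPM, and Cyp17a1, needed for androgens, had 120, 90.6 and 43.9 RPM. Star, Cyp17a1 and Lhcgr, the receptor for luteinizing hormone (602, 208 and 303 reads), were the 3 of 13 genes that were over 2-fold apart. That is 23.1%, against 14.3% of all genes. Scarb1, a receptor for lipoproteins, and Nr5a1, a regulator of steroid enzymes that Sertoli cells also express, were more even with 140 ± 8.29 and 98.8 ± 14.6 RPM. Insl3, a main product of mature Leydig cells, had 2, 1 and 6 reads, but 64.8% of its exon bases lie in another gene on the same strand, and htseq-count leaves out reads that fit both. Sult1e1, another gene of the mature Leydig cell, had 32, 2 and 4 reads.

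Macrophage genes were highest in replicate 1 throughout. All 11 genes with a mean of at least 5 RPM were highest in replicate 1, and the list summed to 537, 306 and 319 RPM. Csf1r, the receptor for their growth factor, had 684, 311 and 415 reads, Adgre1, a surface marker of macrophages, had 224, 122 and 134 reads, and Cd68 had 229, 136 and 170 reads. Mrc1, the mannose receptor, and Lyz2, a lysozyme, had 1140, 586 and 783 reads and 483, 275 and 309 reads. Only Cx3cr1, a chemokine receptor, was over 2-fold apart by all criteria, with 389, 125 and 144 reads. That is 9.09% of the 11 genes, against 14.3% of all genes.

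Peritubular smooth muscle genes summed to 825, 697 and 787 RPM. Acta2, smooth muscle actin, had 96.1 ± 3.28 RPM, Tagln, which shares 67.9% of its exon bases with a gene on the opposite strand, 41.1 ± 1.09 RPM, and Myh11 and Mylk, the myosin and its kinase, 217, 145 and 208 RPM and 206, 157 and 194 RPM. Actg2 was the exception, with 305, 557 and 249 reads and replicate 2 highest. Endothelial genes summed to 284, 261 and 302 RPM with none of 14 over 2-fold apart, against 14.3% of all genes. Of these, Pecam1, Cdh5 and Eng had 20.2 ± 2.63, 39.5 ± 8.36 and 44.1 ± 7.94 RPM. Genes of interstitial fibroblasts and pericytes summed to 1041, 713 and 1084 RPM, and 11 of 12 were lowest in replicate 2. In these, the collagen genes Col1a1, Col1a2 and Col3a1 had 156, 114 and 199 RPM, 227, 158 and 236 RPM, and 224, 164 and 240 RPM. Of the 12 genes 3 were over 2-fold apart (25%, against 14.3% of all genes), 1 highest in replicate 1 and 2 in replicate 3. They included Lum, a matrix proteoglycan gene, and Pdgfra, a growth factor receptor gene, with 90, 45 and 133 reads and 1376, 603 and 1217 reads.

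Lists for lymphocytes and mast cells, adipocytes, epididymis, mesothelium, skeletal muscle and Schwann cells had medians of 1.53 to 7.42 TPM, against 46.0 TPM over all genes with a mean of at least 5 RPM. The 9 genes of lymphocytes and mast cells summed to 11.9, 14.2 and 13.4 RPM. Genes of red blood cells summed to 69.3, 56.6 and 57.1 RPM, with Alas2, the heme synthesis enzyme of red cells, at 23.7 ± 6.64 RPM. The globin genes Hbb-bs and Hba-a1 had 12.6 ± 0.353 and 8.34 ± 0.663 RPM, and Hbb-bt was over 2-fold apart with 92, 35 and 98 reads, but each has a near-identical neighbour with which reads may be shared. Adipocyte, skeletal muscle and Schwann cell lists summed to 37.4 to 45.3, 70.0 to 89.7 and 61.4 to 76.0 RPM. Most of the skeletal muscle sum was Actn3 with 51.6 ± 5.49 RPM, while the muscle-defining Acta1, Myh4 and Myh2 had 3, 26 and 11 reads, 17, 7 and 17 reads, and 5, 0 and 5 reads. In the mesothelium list, Msln and Upk3b, which mark the cells covering the testis, had 3, 19 and 24 reads and 6, 32 and 44 reads, lowest in replicate 1. The list as a whole was lowest in replicate 3, with a sum of 102, 124 and 88.0 RPM, and its members Lrrn4 and Bnc1 were lowest in replicate 2, with 217, 136 and 183 reads and 364, 188 and 389 reads. The mucin gene Muc16 of the same list had the order of the spermatid genes, with 250, 525 and 146 reads.

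Genes of the epididymis, the duct attached to the testis, differed between libraries in different orders. Crisp1, a secreted protein of the epididymis, had 1, 93 and 229 reads (0.119, 12.2 and 24.8 RPM). Lcn5 had 0, 0 and 15 reads and Rnase9 had 2, 1 and 21 reads, both highest in replicate 3 as well. Rnase10 did not follow this order, with 148, 166 and 68 reads. Gpx5 had 1, 0 and 0 reads and Lcn8 had none in any library. Crisp1 was over 2-fold apart with replicate 3 highest and replicate 1 lowest, as were 110 of all genes (0.701%). Among these were Ces5a and Spink8, genes named after their values were seen, with 26, 47 and 200 reads and 23, 61 and 145 reads. The part of attached tissue in these differences was not tested.

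Broadly expressed genes were even, with a sum of 1498, 1404 and 1395 RPM and none of 15 over 2-fold apart, against 14.3% of all genes. Their median was 0.203 reads per exon base, and 6 of them had at least 0.3. Over all genes the share over 2-fold apart was 5.80% between 0.2 and 0.3 reads per exon base. The part of this in their evenness was not tested. Polr2a, the large subunit of RNA polymerase II, had 385 ± 12.5 RPM, Sdha 157 ± 2.46 RPM, Actb 139 ± 5.85 RPM and Ppia 81.2 ± 3.40 RPM. Gapdh had 72, 60 and 138 reads, which is 10.1 TPM per length. It has many near-identical pseudogene copies, and reads that fit several places were not counted, so that its level is uncertain.

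Germ cells are known to use their own copies of several enzymes and housekeeping factors, many of which replace an X-linked gene during meiosis. For 18 such pairs the TPM of the germ-cell gene was divided by that of the general gene within each library, and 17 mean ratios were above 1. Without the division by exon length, 14 mean ratios of RPM were above 1, and those of Ldhc over Ldha, Tbpl1 over Tbp and Rbmxl2 over Rbmx were 0.843, 0.882 and 0.460. The merged exons of Tbp span 13576 bases and those of Tbpl1 3271, so that ratios in TPM depend on the annotated lengths. Glycerol kinase had the highest ratio: Gk2 over the X-linked Gk was 41.9, 121 and 39.1 in replicates 1, 2 and 3, with only 105, 41 and 117 reads of Gk. Pgk2 over Pgk1, the phosphoglycerate kinases, was 3.81, 6.34 and 3.40. Hspa2 over Hspa8, the heat shock chaperones, was 3.64, 6.47 and 5.36, Cyct over Cycs, the cytochromes c, 6.25, 9.83 and 7.08, and Pdha2 over Pdha1, of pyruvate dehydrogenase, 3.04, 5.31 and 3.35. In each of these pairs replicate 2 had the highest ratio. This held for 14 of the 18 pairs, and in 17 the general gene was lowest in replicate 2 in TPM.

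The other pairs covered a wide range. Ldhc over Ldha, the lactate dehydrogenases, was 1.80, 1.75 and 1.75, and Tbpl1 over Tbp, the TATA-binding proteins, was 3.60, 3.82 and 3.56. Rbmxl2 over Rbmx, which bind RNA, was 0.898, 1.57 and 1.59, and Utp14b over Utp14a, of ribosome assembly, was 1.01, 1.67 and 1.36. The ribosomal protein pairs Rpl10l over Rpl10 and Rpl39l over Rpl39 had means of 4.07 ± 0.880 and 5.44 ± 1.39. The cytochrome oxidase pairs Cox6b2 over Cox6b1, Cox7b2 over Cox7b and Cox8c over Cox8a had means of 1.67, 5.52 and 3.11, Cetn1 over Cetn2, the centrins, 4.36 ± 1.31, and Cstf2t over Cstf2, of RNA 3' end processing, 2.19 ± 0.189. Gapdhs over Gapdh was 17.2, 37.5 and 6.06, where the count of Gapdh is uncertain as above. The exception was Slc25a31, the germ-cell carrier of ADP and ATP, listed with 1, 0 and 0 reads against 541, 402 and 541 of Slc25a5. Whether the way reads were counted bears on this was not tested. The germ-cell gene of highest reads per exon base was Cox8c with 0.688, followed by Hspa2 with 0.677 and Ldhc with 0.676, near the upper end of these libraries, and the ratios were not corrected for it. In 15 of the 18 pairs the ratio was higher in replicate 2 than in replicate 3, and in 6 the order was replicate 2, 1, 3.

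**Figure D4:**
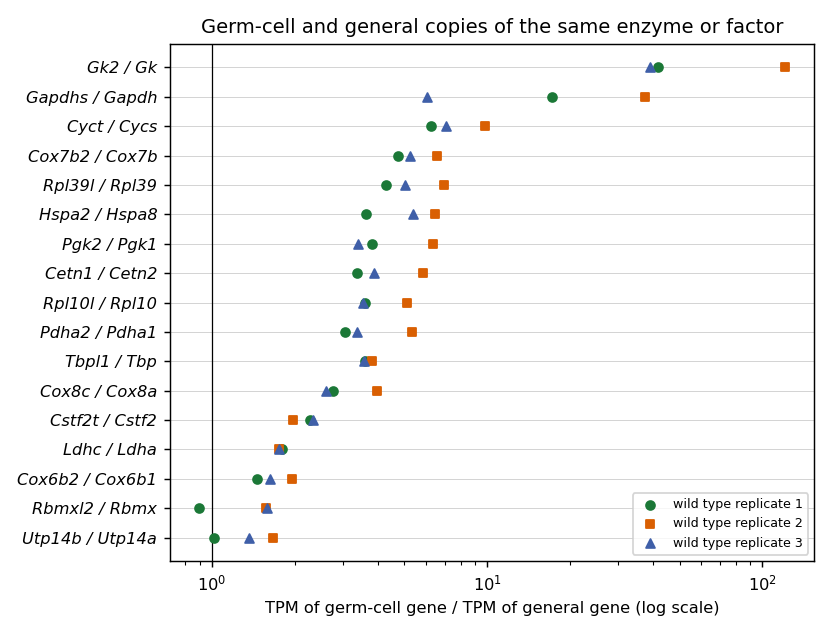
TPM of the germ-cell gene divided by TPM of the general gene (log scale) for 17 pairs in wild type replicates 1 (circles), 2 (squares) and 3 (triangles), with a line at 1. Slc25a31 over Slc25a5, with 1, 0 and 0 reads of Slc25a31, is not drawn. Replicate 2 has the highest ratio in most pairs, and only Rbmxl2 over Rbmx in replicate 1 lies below 1, whereas in RPM 3 of these pairs have a mean ratio below 1.

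Across the transcriptome, replicate 2 was the library that stood apart. Of the 2246 genes that were over 2-fold apart, 1444 were highest in replicate 2 (9.2% of all genes with a mean of at least 5 RPM), 479 in replicate 1 (3.05%) and 323 in replicate 3 (2.06%). The order replicate 2, 1, 3 held for 1113 of them (7.09%). Over 10-fold differences were found in 200 genes, of which 176 were highest in replicate 2, 15 in replicate 1 and 9 in replicate 3. The median gene, by contrast, was slightly lower in replicate 2, with a median log2 difference of -0.07 to replicate 1 and -0.10 to replicate 3. RPM values are shares of 1 total, and more reads of some genes lower the shares of the others. Without replicate 2, 561 of 15370 genes (3.65%) were over 2-fold apart.

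**Figure D5:**
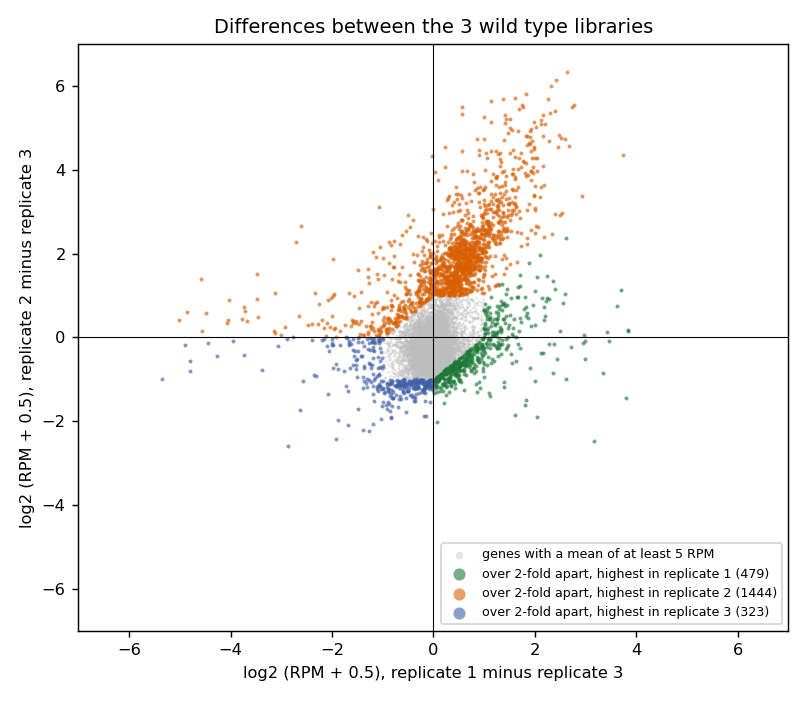
Difference in log2 (RPM + 0.5) between wild type replicates 2 and 3 (vertical) against that between replicates 1 and 3 (horizontal) for genes with a mean of at least 5 RPM. Coloured points are over 2-fold apart and highest in replicate 1 (green, 479 genes), replicate 2 (orange, 1444) or replicate 3 (blue, 323), and the orange cloud stretches to the upper right, where replicate 2 is above replicate 1 and replicate 1 above replicate 3.

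Of the 20 genes with the largest spread, 17 were highest in replicate 2, 2 in replicate 3 and 1 in replicate 1. Hemgn, first known from blood-forming cells, had 22, 302 and 0 reads in replicates 1, 2 and 3. Replicate 2 was 122-fold higher than replicate 3 when 3 counts are taken for 0, a value that leaves out the counting error of the 302 reads. Spata31d1b and Spata31d1c, of a family expressed in spermatids, had 53, 663 and 8 reads and 17, 300 and 2 reads. Ubqlnl, a ubiquilin of the testis, had 28, 383 and 2 reads, with a ratio of 233 between replicates 2 and 3 (95% interval 63.9 to 1927). Fam71a and Fam71b, 2 related genes on chromosomes 1 and 11, had 28, 501 and 7 reads and 46, 493 and 7 reads.

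The same order, replicate 2 over 1 over 3, was found in Oxct2a and Oxct2b, the testis forms of the enzyme that lets cells use ketone bodies, with 10, 169 and 0 reads and 6, 173 and 1 reads. Both lie on chromosome 4 and are near-identical, so that reads may be split between them. Fbxo39 had 16, 250 and 2 reads, Spatc1, a protein of the sperm centriole, had 18, 272 and 3 reads, and 4931408C20Rik had 5, 186 and 0 reads. Gm5893, a noncoding gene, had 9, 235 and 1 reads. Gm30302 and 1700009J07Rik were near 0 in both other libraries, with 2, 168 and 0 reads and 2, 149 and 0 reads.

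Other transcripts were nearly absent from replicate 1 alone. The noncoding genes 4930455M05Rik, 4930473A02Rik, Gm19589 and Gm37041 had 3, 407 and 185 reads, 1, 200 and 181 reads, 2, 244 and 192 reads, and 1, 120 and 166 reads. Of 4930473A02Rik, 23.8% of the exon bases lie opposite another gene. In all, 20 genes with a mean of at least 5 RPM had at most 3 reads in replicate 1 and more in both other libraries. The same held for 33 genes in replicate 3, and for 2 in replicate 2. The protein-coding genes of largest range with replicate 3 highest belonged here: Crisp1 was followed by Olfr1033, an olfactory receptor gene with 0, 56 and 123 reads, Gm14443, with 0, 67 and 123 reads, Serpina3g, a protease inhibitor with 3, 126 and 168 reads, and Mcub, a part of the mitochondrial calcium uniporter with 3, 92 and 118 reads. With 3 counts taken for 0, Olfr1033 and Gm14443 were each 37.3-fold higher in replicate 3 than in replicate 1, the counting error of replicate 3 left out. Serpina3g and Gm14443 belong to families of near-identical copies, and reads that fit several copies were not counted.

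Among protein-coding genes with replicate 1 highest, the largest difference was in Tmem163. Tmem163, which encodes a zinc transporter, had 592, 7 and 68 reads and was 76.6-fold higher in replicate 1 than in replicate 2 (37.0 to 191). Zfp990, a zinc finger gene of a repeated family, had 454, 19 and 45 reads. Vipr2, a receptor for vasoactive intestinal peptide, had 121, 5 and 5 reads, Hal, a histidine ammonia-lyase, had 133, 6 and 6 reads, and Grin2b, a glutamate receptor subunit, had 193, 26 and 12 reads. Replicates 2 and 3 both lay far below replicate 1 in each of these genes.

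Long noncoding genes were often over 2-fold apart. Of 1529 long noncoding genes with a mean of at least 5 RPM, 458 were over 2-fold apart, of which 377 were highest in replicate 2. Among protein-coding genes 1661 of 13681 were (12.1%), and among pseudogenes 122 of 468 (26.1%). Long noncoding genes held 3.19%, 4.19% and 3.27% of the reads in replicates 1, 2 and 3. The noncoding genes with most reads were even by comparison: Gm49794 had 357 ± 65.6 RPM, Gm21269 had 348 ± 20.5 RPM, AC140207.2 had 317 ± 17.3 RPM, 1700001L05Rik had 312 ± 9.72 RPM and 4932431P20Rik had 261 ± 28.6 RPM. Lower counts per exon base also went with a higher share of such genes, from 0% above 0.5 reads per exon base to 34.5% between 0.005 and 0.02, and the part of read depth in the share of noncoding genes was not tested.

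Meiotic spermatocytes are known to silence both sex chromosomes. The 627 X-linked protein-coding genes above 1 RPM in every library had a median of 29.3 TPM, against 44.0 TPM for 14451 autosomal genes. All X-linked genes together held 2.58%, 2.05% and 2.37% of the reads on genes in replicates 1, 2 and 3. Of 595 X-linked genes with a mean of at least 5 RPM, 140 (23.5%) were over 2-fold apart, compared with 13.9% of autosomal genes. Of these 140, 87 were highest in replicate 2, although the median X-linked gene was lower there, with a log2 difference of -0.354 to replicate 3. Over all genes the share over 2-fold apart was higher at few reads per exon base (24.6% between 0.02 and 0.05), and its part here was not tested. On the Y chromosome Ddx3y, Uba1y and Eif2s3y had most reads, with 64.5 ± 15.7, 61.1 ± 8.03 and 56.7 ± 6.55 RPM, and none of 10 Y-linked genes was over 2-fold apart. Xist, the RNA that coats an inactive X chromosome, had 187, 79 and 184 reads, a ratio of 2.15 between replicates 1 and 2 (1.64 to 2.83).

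Mov10, the gene studied in the series, was present in every wild type library with 969, 707 and 1115 reads. Mov10 thus had 110 ± 14.8 RPM, or 78.0 ± 13.7 TPM per length. Its germ-cell paralog Mov10l1, which is needed to make piRNAs, had 1726, 1450 and 1948 reads, 203 ± 10.5 RPM or 192 ± 18.4 TPM. Both genes were lowest in replicate 2, and neither was over 2-fold apart.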

How the data were processed

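The deposited values are raw read counts for each Ensembl gene. Per the methods of the study, TruSeq stranded mRNA libraries of P21 testes were sequenced, trimmed, aligned to mm10 with STAR and counted with htseq-count on Ensembl v99. The strand setting and the treatment of duplicate reads are not given in the sources used here.

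From the counts, RPM was computed as reads on a gene per 1000000 reads on genes, and TPM from the exon lengths of GENCODE M21 (mm10), which matched 55240 of 55421 genes. The other 181 genes held at most 0.0322% of reads. Reads outside genes (16.7% to 18.7% of all reads), not aligned (26.5% to 30.3%) or not unique (6.91% to 7.56%) entered no total. Ranks of spread used the SD of log2 (RPM + 0.5). With 1 group of 3 libraries no test was made.

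The marker lists, pairs and rules were chosen with earlier results of these data known. Named genes were the 20 highest in RPM, 10 in TPM, the first 3 and the 3 with most reads of each list, members at 0, the 20 of largest spread, 5 per library of largest range, all pairs, Mov10, Mov10l1, Xist, 3 Y-linked and 5 noncoding genes, and Izumo1 for its promoter. Some genes that this rule selects are not reported here. Other list members were named after their values were seen. Alternatives used TMM (edgeR 4.0.16) and DESeq2 1.42.0 size factors in R 4.3.3, other minimums, pseudocounts and folds, and each replicate left out. Python 3.11.15 was used.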

Additional observations from a re-analysis of the deposited data

How the results depend on the processing

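The count of genes above 1 RPM in every library stayed within 1.5-fold under every alternative run. With TMM and DESeq2 size factors it was 18779 again, since 1 RPM fell between the same whole numbers of reads, so these could not change it. Of the 18 pairs, 14 had a mean ratio above 1 in RPM against 17 in TPM, and 3 pairs changed sides. Under TMM and DESeq2 size factors the mean over libraries of every list sum moved by less than 1 SD. Those sizes were first set to the mean of the totals, so this mean could hardly move, and sums of single libraries were not compared. From genes of at least 1 RPM alone the lymphocyte and mast cell sum was 10.4 RPM. Without a replicate the mean elongating spermatid sum of 812 RPM became 506 to 1019 RPM and the round spermatid sum of 1018 RPM became 749 to 1195 RPM, both lowest without replicate 2. With 3 libraries, 1 SD is too wide a bound to test this.

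The count of genes over 2-fold apart depended on its criteria. With a minimum of 1 RPM it was 4315 (900, 2772 and 643 highest in replicates 1, 2 and 3), with no minimum 4885 (1006, 3167 and 712), and with 20 RPM 757 (141, 540 and 76), of which 12 were elongating spermatid and 1 fibroblast genes. Over 3-fold it was 1127 (99 highest in replicate 1 and 62 in replicate 3), with 0 Sertoli, 0 Leydig and 0 fibroblast genes. With edgeR's tagwise coefficient of variation over 0.5 it was 1142 (126, 935 and 81), with 8 round and 11 elongating spermatid genes and 0 of the Sertoli, Leydig and fibroblast lists. With a pseudocount of 2 RPM, 211 genes were highest in replicate 3 and 2 Sertoli genes were over 2-fold apart. Leaving out each replicate gave 561 to 1845 genes, 206 to 277 highest in replicate 3, 0 to 16 round and 6 to 19 elongating spermatid, 1 to 3 Sertoli, 1 to 3 Leydig and 0 to 2 fibroblast genes. The lowest values were without replicate 2, except for Sertoli genes (1 without replicate 1) and Leydig genes (1 without replicate 1 or 3). The causes were not tested.

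The share of these genes that were highest in replicate 2 was 64.3%, 69.5% with TMM and 68.6% with DESeq2 size factors. Genes under 0.3 reads per exon base alone, an alternative chosen after seeing the data, gave 2213 genes over 2-fold apart, with 15 round and 14 elongating spermatid genes. No paired analysis was possible because the 3 libraries form 1 group and no test was made.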
